A study of Saccharomyces cerevisiae with 6 samples.

Results

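Mitochondrial DNA of yeast carries its own set of tRNA genes, and the 24 listed in these data are described here one by one. They are all the features classed as mitochondrial tRNA in both deposited tables, 24 of 5667 listed features and of 45 on the mitochondrial genome, and no measured value was used to choose them. RNA came from the isolated mitochondria of a haploid laboratory strain of budding yeast, Saccharomyces cerevisiae CEN.PK113-7D, for which the labels give no altered allele, grown in shake flasks in synthetic medium to mid-exponential phase. The groups were 3 biological replicate cultures on ethanol (given in the growth protocol as ethanol with glycerol) and 3 on glucose, and the study asked how the mitochondrial transcriptome differs between these carbon sources. All RNA was given an enzymatic poly(A) tail, so that RNA without one could be captured, and was read directly on a Nanopore instrument. Values are in CPM, read counts scaled to one common library total.

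Yeast mitochondria translate a small number of proteins, among them membrane proteins of the respiratory chain, on their own ribosomes, with tRNAs made from the mitochondrial genome. The tRNAs are cut out of longer transcripts: RNase P, whose RNA subunit RPM1 is also encoded on mtDNA, trims the 5′ end, an RNase Z trims the 3′ end, and the terminal CCA is added afterwards. Yeast is known for a cluster of tRNA genes between the 21S rRNA gene and COX2, for a threonine tRNA that reads the CUN codons, which stand for leucine elsewhere, and for a tryptophan tRNA that reads UGA.

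The libraries held 267509 to 847610 assigned reads on ethanol and 931974 to 1093126 on glucose, and 1 read was worth between 0.915 and 3.74 CPM. Mitochondrial features, which mark the isolated organelle, took 3.15% to 12.6% of the CPM in ethanol and 6.41% to 7.50% in glucose, so most of the RNA in both groups was nuclear-encoded. Of the mitochondrial CPM, 90.6% to 93.6% was rRNA in ethanol and 91.4% to 94.3% in glucose. The tRNA features rested on few reads, 447, 55 and 233 for the ethanol cultures and 39, 44 and 54 for the glucose cultures. For a tRNA listed at 0 no read was counted, and 3 reads were taken as the upper limit of its expected count. That limit is 0.00281% to 0.0197% of the mitochondrial CPM in an ethanol library and 0.00428% to 0.00445% in a glucose library. These limits and the intervals below cover counting error only.

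The sequences below show the tRNAs on which the results turn: the proline tRNA that led in glucose, the glutamate, leucine, tyrosine, phenylalanine and initiator methionine tRNAs that passed the test, and the glutamine tRNA that lies next to the leucine one. They were read from the RefSeq assembly R64 of the strain S288C by its own annotation, on the plus strand of its mitochondrial genome, with capitals marking the anticodon. All 24 names matched there and all 24 had the same length as in the tables, but the bases of CEN.PK113-7D may differ. In S288C, tP(UGG)Q lies at 731 to 802, tE(UUC)Q at 35373 to 35444, tL(UAA)Q at 66095 to 66179, tQ(UUG)Q at 66210 to 66285, tY(GUA)Q at 70824 to 70907, tF(GAA)Q at 77431 to 77505 and tM(CAU)Q2 at 85035 to 85112.
tP(UGG)Q: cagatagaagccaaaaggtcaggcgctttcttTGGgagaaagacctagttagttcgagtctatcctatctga
tE(UUC)Q: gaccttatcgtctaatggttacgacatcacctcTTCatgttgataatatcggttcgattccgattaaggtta
tL(UAA)Q: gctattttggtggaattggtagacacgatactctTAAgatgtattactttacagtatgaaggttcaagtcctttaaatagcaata
tQ(UUG)Q: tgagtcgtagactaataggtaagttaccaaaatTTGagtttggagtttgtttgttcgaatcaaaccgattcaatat
tY(GUA)Q: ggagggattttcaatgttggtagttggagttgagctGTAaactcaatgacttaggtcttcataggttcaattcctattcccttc
tF(GAA)Q: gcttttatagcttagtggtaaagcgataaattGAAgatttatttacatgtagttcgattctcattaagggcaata
tM(CAU)Q2: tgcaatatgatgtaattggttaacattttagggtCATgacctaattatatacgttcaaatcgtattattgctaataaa
GC content over the 24 genes ran from 17.6% in tR(ACG)Q2 to 44.4% in tP(UGG)Q, against 17.1% for the whole mitochondrial genome.

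Relative to other mitochondrial RNA, the tRNAs together stood higher in ethanol in all 3 cultures. Of the mitochondrial CPM they took 0.418%, 0.360% and 1.10% on ethanol (replicates 1 to 3 in this order, here and throughout) and 0.0560%, 0.0655% and 0.0771% on glucose, means of 0.627% ± 0.412 and 0.0662% ± 0.0106 (SD, n = 3). The 95% Wilson intervals of these shares started at 0.278% or above in ethanol and reached at most 0.101% in glucose. Ethanol replicate 3 was the high library, and the difference between the means, 0.561 percentage points, was 0.323 without it. These shares are relative to other mitochondrial RNA and give no amount of tRNA per cell or organelle. For such amounts these bulk preparations cannot tell a change in the number of cells or organelles from a change in RNA per cell.

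The spread was smaller when the tRNAs were set against the mitochondrial protein-coding features. Summed tRNA CPM equalled 21.9%, 18.3% and 22.0% of the protein-coding CPM on ethanol and 1.20%, 1.11% and 1.13% on glucose. The means were 20.8% ± 2.10 and 1.15% ± 0.0462 (SD, n = 3), an 18.1-fold ratio. The protein-coding share of mitochondrial CPM was 1.91%, 1.96% and 5.0% in ethanol and 4.66%, 5.88% and 6.80% in glucose, so ethanol replicates 1 and 2 lay below all glucose libraries and replicate 3 among them, and its part in this ratio was not tested. RPM1, the RNA of the enzyme that trims tRNA 5′ ends, made up 3.71%, 3.42% and 2.14% of the mitochondrial CPM on ethanol and 0.608%, 1.18% and 1.27% on glucose. Summed tRNA was 11.3%, 10.5% and 51.6% of RPM1 in ethanol and 9.22%, 5.55% and 6.09% in glucose. All ethanol libraries thus lay above all glucose libraries on this measure too, replicate 3 by far the most. The nearest values, 10.5% in ethanol replicate 2 and 9.22% in glucose replicate 1, rested on 55 and 39 tRNA reads. No counting interval was computed for this measure. As the members were taken as a set with earlier results known, no test was made on these sums.

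**Figure D1:**
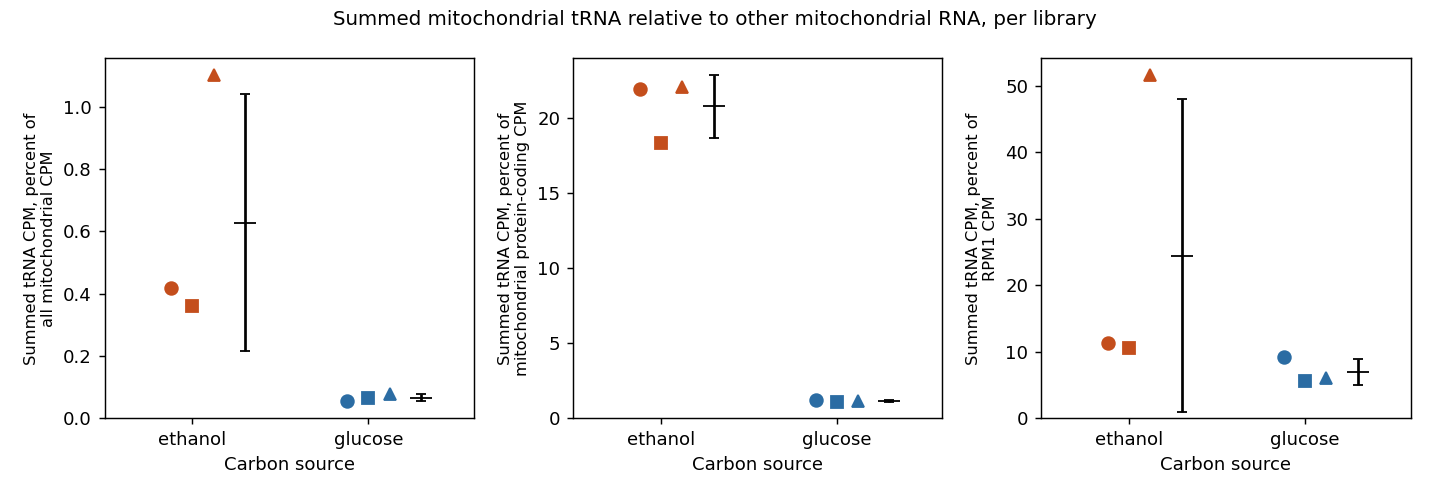
Summed CPM of the 24 mitochondrial tRNAs as a percent of all mitochondrial CPM (left), of mitochondrial protein-coding CPM (middle) and of RPM1 CPM (right), 1 symbol per library (circle, square and triangle for replicates 1, 2 and 3) with mean ± SD in black. Against protein-coding CPM the ethanol libraries lie between 18.3% and 22.0% and the glucose libraries between 1.11% and 1.20%, while against RPM1 ethanol replicate 3 stands at 51.6%, the other ethanol libraries at 11.3% and 10.5%, and the highest glucose library at 9.22%.

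Single tRNAs were compared with limma on log2(CPM + 1) in a fit over every feature averaging 10 CPM or more, with Benjamini-Hochberg adjustment over the 1693 features tested. Only 8 of the 24 tRNAs reached that mean, and 5 of the 8 passed an adjusted p of 0.05, all higher in ethanol, where 14.2% of all features tested were called and 2.48% were called higher. Just 1 of the 8, tP(UGG)Q, would have reached the mean on its glucose level, so the other 7 entered the fit through ethanol and the count of 5 is no measure of the whole set. Without the filter all 24 were tested among 5522 features. Then 8 were called higher and none lower, where 9.63% of features were called, 1.27% higher and 8.37% lower, and the median log2 fold change over the 24 was 1.69 against -1.06 over all features. No tRNA passed when any 1 glucose library was left out, where only 4 or 5 of the 1693 features passed, and 3 passed without ethanol replicate 2, namely tE(UUC)Q, tF(GAA)Q and tM(CAU)Q2. When mitochondrial and nuclear features were each scaled to their own sum, 7 of the 8 tRNAs passed, all but tP(UGG)Q, where 17.0% of features were called and 2.84% were called higher.

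The reads behind each value are plotted for all 24 tRNAs. In ethanol, replicate 1 alone held 60.8% of the tRNA reads of its group. In glucose 19 tRNAs had at most 3 reads in every library, and in ethanol the same was true of 3, tW(UCA)Q, tT(UGU)Q1 and tS(GCU)Q1, which were also among the 19. For those 3 no ratio is given.

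**Figure D2:**
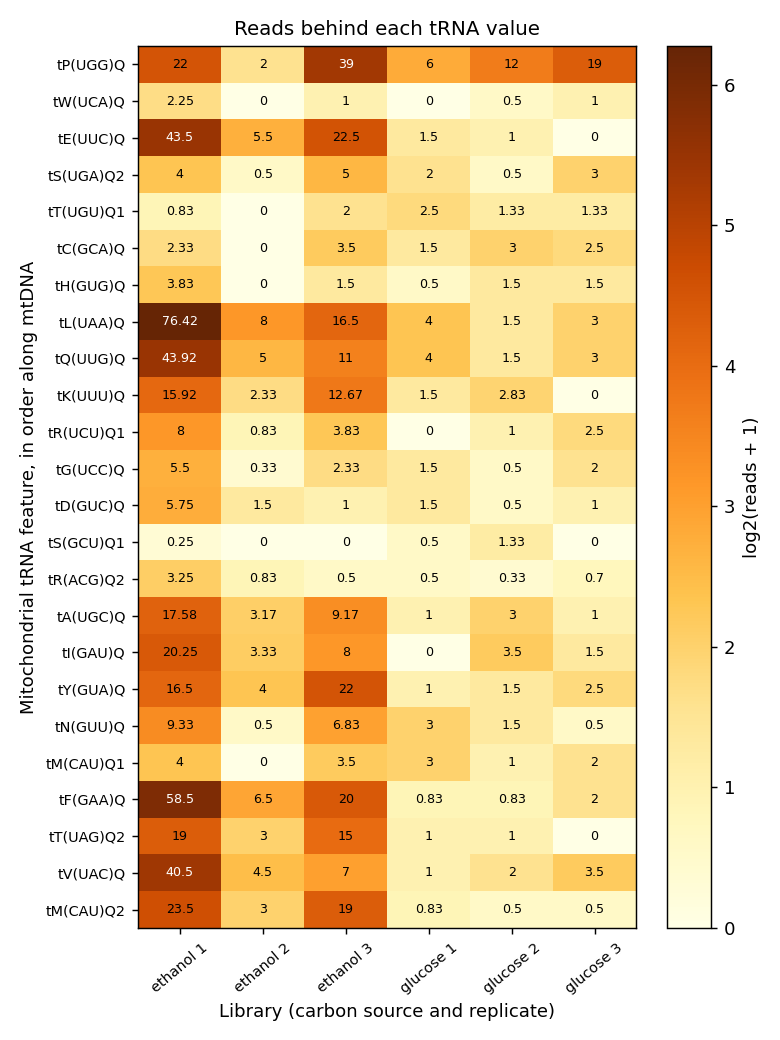
Reads behind each tRNA value, recovered from the CPM steps, for 24 tRNAs in order along mtDNA (rows) and 6 libraries (columns), with colour showing log2(reads + 1). Only tP(UGG)Q has 6 or more reads in each glucose library, while tL(UAA)Q reaches 76.42 and tF(GAA)Q 58.5 reads in ethanol replicate 1.

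Many of these values were not whole numbers of reads. Of the 144 tRNA values 14 were 0, and 79 of the other 130 (60.8%) were fractional by more than 0.005 read, as were 85.0% of the nonzero values of mitochondrial protein-coding features and 7.67% of those of nuclear mRNA features. How parts of a read came to be counted is not given in the sources used here. tP(UGG)Q and tT(UAG)Q2 had whole values in all 6 libraries, and tR(ACG)Q2 had fractions in all 6. In ethanol replicate 1 only 12.8% of the tRNA CPM came from whole values, against 45.6% and 64.4% in ethanol replicates 2 and 3 and 54.4% to 68.5% in glucose. From whole values alone the tRNA share of mitochondrial CPM in ethanol replicate 1 was 0.0534%, just above the 0.0528% of glucose replicate 3. Read lengths were not analysed here, so mature tRNA and longer RNA that spans a tRNA gene are not separated.

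The 5 tRNAs past the threshold carry glutamate, leucine, tyrosine, phenylalanine and the initiator methionine. All 5 passed the filter only through their ethanol level, which limits the adjusted p-values given for them below. Without the filter their limma adjusted p was 0.00454, 0.0278, 0.0374, 0.00798 and 0.0127, in the same order. The glutamate tRNA tE(UUC)Q (mtDNA of the CEN.PK113-7D assembly, 36041 to 36112, plus strand) lies alone, 1076 bases before COB. It had 43.5, 5.5 and 22.5 reads on ethanol and 1.5, 1 and 0 reads on glucose, which is 0.0407%, 0.0362% and 0.107% of the mitochondrial CPM against 0.00215%, 0.00148% and 0. Every ethanol library lay far above every glucose library. The log2 fold change was 4.30 ± 1.15 (SE, limma adjusted p = 0.00598), and reads pooled over each group gave 52.2 times more per mitochondrial read in ethanol, with an exact 95% counting interval from 13.9 to 439. Pooled ratios, here and below, weigh ethanol replicate 1 most, and their intervals leave out the spread between cultures.

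The phenylalanine tRNA tF(GAA)Q (78175 to 78249, plus strand) follows the open reading frame Q0255 after 1446 bases. It had 58.5, 6.5 and 20 reads on ethanol and 0.83, 0.83 and 2 on glucose, or 0.0548%, 0.0427% and 0.0947% of the mitochondrial CPM against 0.00119%, 0.00123% and 0.00286%. The groups did not overlap, and its log2 fold change was 4.16 ± 1.14 (SE, limma adjusted p = 0.00733). The pooled ratio was 30.8, with a counting interval from 11.6 to 116.

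The formylmethionine tRNA tM(CAU)Q2 (85824 to 85901, plus strand), which starts protein synthesis, lies 230 bases before RPM1. On its other side the nearest listed feature, ORI5, is 2434 bases away. tM(CAU)Q2 had 23.5, 3 and 19 reads on ethanol and 0.83, 0.5 and 0.5 on glucose. That is 0.0220%, 0.0197% and 0.0899% of the mitochondrial CPM against 0.00119%, 0.000742% and 0.000714%. All glucose libraries thus held less than 1 read. The log2 fold change was 3.77 ± 1.17 (SE, limma adjusted p = 0.0201) and the pooled ratio 33.3, with a counting interval from 8.72 to 283. It was also the only 1 of the 24 with the letters ATATAAGTA, the core of the mitochondrial promoter, in the 300 bases before the gene on its own strand in S288C, ending 12 bases before it. That is 4.17% of the tRNA genes, where 2.27% of all windows of 300 bases on the strands of that genome hold these letters, which occur 14 times on both strands together. The match describes the sequence only.

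The leucine tRNA tL(UAA)Q (67197 to 67281) and the glutamine tRNA tQ(UUG)Q (67312 to 67387), both on the plus strand, are separated by 30 bases. tL(UAA)Q had 76.42, 8 and 16.5 reads on ethanol and 4, 1.5 and 3 on glucose, or 0.0716%, 0.0526% and 0.0781% of the mitochondrial CPM against 0.00572%, 0.00222% and 0.00428%. Its log2 fold change was 3.51 ± 1.13 (SE, limma adjusted p = 0.0243). tQ(UUG)Q had 43.92, 5 and 11 reads on ethanol and the same 4, 1.5 and 3 reads on glucose as its neighbour, or 0.0411%, 0.0329% and 0.0521% of the mitochondrial CPM on ethanol.

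No other pair of adjacent tRNAs had equal values in all glucose libraries, and none had in ethanol. In ethanol tL(UAA)Q stood above tQ(UUG)Q in every library, by 1.74, 1.6 and 1.5 times. The log2 fold change of tQ(UUG)Q was 2.85 ± 1.13 (SE, limma adjusted p = 0.0676), just short of the threshold, although its groups did not overlap either. Its adjusted p was 0.0423 with mitochondrial features on their own total.

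The tyrosine tRNA tY(GUA)Q (71562 to 71645, plus strand) had 16.5, 4 and 22 reads on ethanol and 1, 1.5 and 2.5 on glucose, or 0.0155%, 0.0263% and 0.104% of the mitochondrial CPM against 0.00143%, 0.00222% and 0.00357%. The ethanol libraries all lay above those of glucose, with replicate 3 well above the others. The log2 fold change was 3.13 ± 1.15 (SE, limma adjusted p = 0.0467).

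The proline tRNA tP(UGG)Q (744 to 815, plus strand) was the highest in glucose and did not pass the test. By map coordinate it is the first listed feature of the mitochondrial genome, and the next one, the replication origin ORI1, starts 3203 bases later. Neighbours were read from the start of the map to its end, so any neighbour of tP(UGG)Q across the ends is not given. The proline tRNA had 22, 2 and 39 reads on ethanol and 6, 12 and 19 on glucose. That is 0.0206%, 0.0132% and 0.185% of the mitochondrial CPM against 0.00858%, 0.0178% and 0.0271%. The groups overlapped, since ethanol replicates 1 and 2 lay within the glucose range and only ethanol replicate 3 lay above it. The log2 fold change was 0.99 ± 1.14 (SE, limma adjusted p = 0.546), and an exact two-sided permutation test on the percent of mitochondrial CPM gave p = 0.6, where 0.1 is the smallest p that 3 against 3 allows. The log2 fold change was 0.34 without ethanol replicate 3, 1.74 without ethanol replicate 2 and 0.65 without glucose replicate 1. Whether tP(UGG)Q differed from the other tRNAs in its change was not tested.

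**Figure D3:**
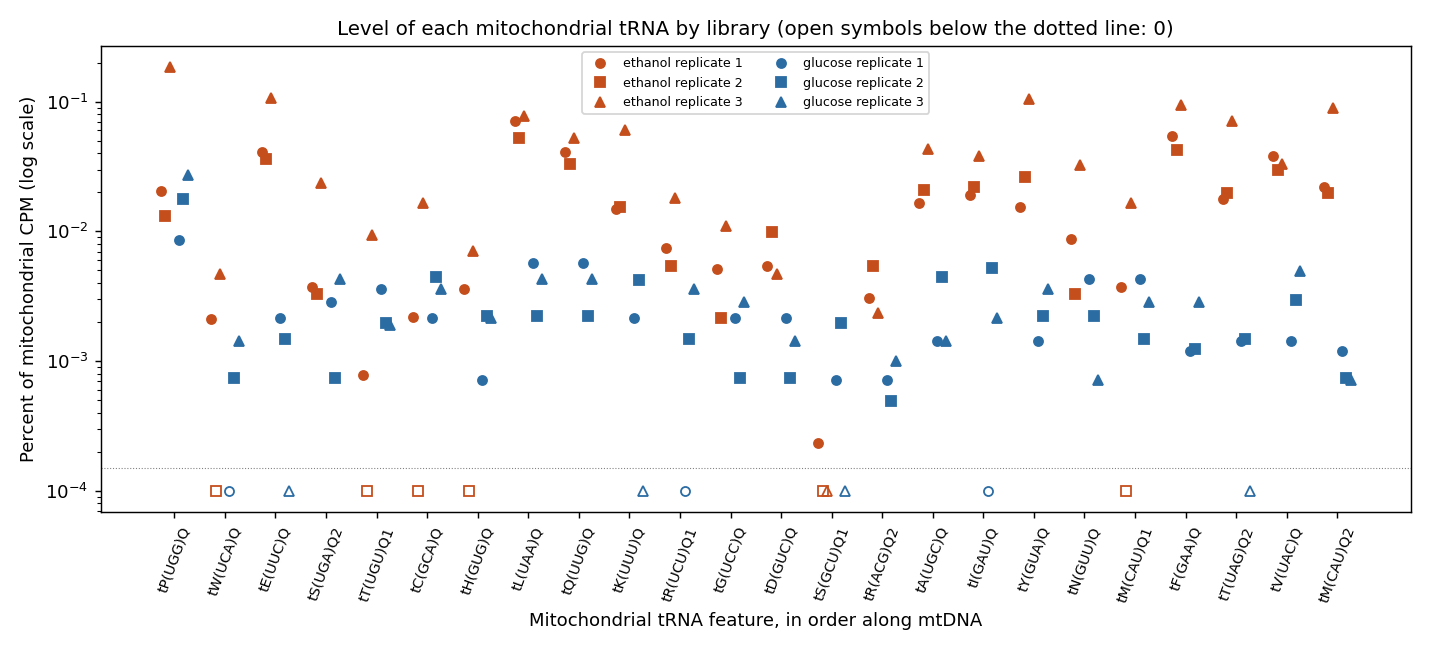
Each tRNA as a percent of mitochondrial CPM on a log axis, in order along mtDNA, 1 symbol per library in ethanol (orange) and glucose (blue), with values of 0 as open symbols under the dotted line. The libraries separate by carbon source at tE(UUC)Q, tL(UAA)Q, tQ(UUG)Q, tF(GAA)Q and tM(CAU)Q2 among others, and overlap at tP(UGG)Q and along much of the start of the tRNA cluster.

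As a percent of mitochondrial CPM the 3 ethanol libraries lay above the 3 glucose libraries for 14 of the 24 tRNAs and below for none, where 44.4% of all 45 mitochondrial features and 28.6% of the 21 that are not tRNAs lay above. A read weighs more in a shallow library. Ethanol replicates 1 to 3 held 106789, 15208 and 21126 mitochondrial reads, and the glucose libraries 67422 to 70039. Some of the 14 were thus apart on very few reads. tK(UUU)Q had 2.33 reads in ethanol replicate 2 against 2.83 in glucose replicate 2. tR(ACG)Q2 had 0.5 in ethanol replicate 3 against 0.7 in glucose replicate 3. The part of depth in this count was not tested. The mean was higher in ethanol for 23 of the 24, with tS(GCU)Q1 as the exception. The median ratio of means was 6.14 over the 24 tRNAs and 1.32 over the other mitochondrial features. On CPM as deposited the count above was 13 of 24, where 2.56% of all features and 4.19% of those past the filter lay above.

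Along mtDNA the 24 tRNAs fall into stretches with no other listed feature between them. From the start of the map, 4 lie singly: tP(UGG)Q, tW(UCA)Q, tE(UUC)Q and tS(UGA)Q2. Then come 16 between the 21S rRNA and COX2, 3 between Q0255 and COX3, and tM(CAU)Q2 near RPM1. All are on the plus strand but tT(UAG)Q2.

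tW(UCA)Q (9397 to 9470), the tryptophan tRNA that reads UGA, lies 1180 bases after the 15S rRNA and had 2.25, 0 and 1 reads on ethanol and 0, 0.5 and 1 on glucose. No library thus held more than 3 reads of it. The serine tRNA tS(UGA)Q2 (48987 to 49076), between OLI1 and VAR1, had 4, 0.5 and 5 reads on ethanol and 2, 0.5 and 3 on glucose, and the groups overlapped.

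The 16 tRNAs of the cluster (64754 to 73590) took 52.3%, 54.4% and 44.8% of the tRNA CPM on ethanol and 66.4%, 58.5% and 46.3% on glucose, so the groups overlapped in this share. As a percent of mitochondrial CPM the cluster had 0.219%, 0.196% and 0.494% in ethanol and 0.0372%, 0.0383% and 0.0357% in glucose. The glucose libraries lay close together and under all ethanol libraries. Within the cluster the tRNAs were far from even, with 101 pooled ethanol reads for tL(UAA)Q and none after rounding for tS(GCU)Q1.

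The first 3 tRNAs of the cluster, tT(UGU)Q1 for threonine (64754 to 64829), tC(GCA)Q for cysteine (65386 to 65461) and tH(GUG)Q for histidine (65527 to 65601), had few reads in both groups. They had between 0 and 3.83 reads in ethanol libraries and between 0.5 and 3 in glucose libraries, and no read in ethanol replicate 2. Their pooled ratios had counting intervals on both sides of 1, from 0.345 to 4.32 for tC(GCA)Q and from 0.390 to 9.13 for tH(GUG)Q. Next in order come tL(UAA)Q and tQ(UUG)Q, 1595 bases after tH(GUG)Q, with the most pooled reads of the cluster in ethanol, mainly from replicate 1. In ethanol replicate 3 tY(GUA)Q had 22 reads against 16.5 for tL(UAA)Q, and tK(UUU)Q had 12.67 against 11 for tQ(UUG)Q.

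The lysine tRNA tK(UUU)Q (68222 to 68295) had 15.92, 2.33 and 12.67 reads on ethanol and 1.5, 2.83 and 0 on glucose, without overlap in percent of mitochondrial CPM. Its mean was 15.5 CPM in ethanol and 1.44 CPM in glucose, which kept it under the filter, and without the filter its log2 fold change was 2.87 ± 1.01 (SE, limma adjusted p = 0.0489). The arginine tRNA tR(UCU)Q1 (68508 to 68580) and the glycine tRNA tG(UCC)Q (68675 to 68749), 94 bases apart, had 8, 0.83 and 3.83 and 5.5, 0.33 and 2.33 reads in ethanol. In glucose they had at most 2.5 and 2 reads, and only for tR(UCU)Q1 did the groups stay apart in percent of mitochondrial CPM.

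The aspartate tRNA tD(GUC)Q (69595 to 69669) had 5.75, 1.5 and 1 reads on ethanol and at most 1.5 on glucose, and its groups did not overlap in percent of mitochondrial CPM. After it, the serine tRNA tS(GCU)Q1 (70087 to 70172) and the arginine tRNA tR(ACG)Q2 (70173 to 70246) abut with no base between them. tS(GCU)Q1 had the fewest reads of the 24, with 0.25, 0 and 0 in ethanol and 0.5, 1.33 and 0 in glucose. tR(ACG)Q2 had 3.25, 0.83 and 0.5 reads on ethanol and 0.5, 0.33 and 0.7 on glucose. Its groups did not overlap in percent of mitochondrial CPM, but the counting interval of its pooled ratio ran from 0.593 to 38.

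The alanine tRNA tA(UGC)Q (70697 to 70772) and the isoleucine tRNA tI(GAU)Q (71015 to 71090) are 242 bases apart and had similar values. tA(UGC)Q had 17.58, 3.17 and 9.17 reads on ethanol and 1, 3 and 1 on glucose, and tI(GAU)Q 20.25, 3.33 and 8 and 0, 3.5 and 1.5. Both were above every glucose library in all ethanol libraries as a percent of mitochondrial CPM, with pooled ratios of 8.69 (counting interval 3.34 to 28.7) and 9.27 (3.59 to 30.5). Without the filter tI(GAU)Q passed (log2 fold change 2.90 ± 1.02 SE, limma adjusted p = 0.0474) and tA(UGC)Q did not (2.69 ± 1.03 SE, limma adjusted p = 0.0689), a difference that was not itself tested.

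After tY(GUA)Q the cluster ends with the asparagine tRNA tN(GUU)Q (72205 to 72275) and the elongator methionine tRNA tM(CAU)Q1 (73515 to 73590), 911 bases before COX2. tN(GUU)Q had 9.33, 0.5 and 6.83 reads on ethanol and 3, 1.5 and 0.5 on glucose. tM(CAU)Q1 had 4, 0 and 3.5 reads on ethanol and 3, 1 and 2 on glucose. For both the groups overlapped. tM(CAU)Q1 thus had 0.00375%, 0 and 0.0166% of the mitochondrial CPM in ethanol, while the other methionine tRNA, the initiator tM(CAU)Q2, had at least 0.0197% in each. In ethanol replicate 2 that value rested on 3 reads, the limit for a tRNA listed at 0, so the methionine tRNAs are not separated there.

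Between Q0255 and COX3 the order is tF(GAA)Q, tT(UAG)Q2 and tV(UAC)Q, and these 3 together took 26.4%, 25.5% and 18.0% of the tRNA CPM in ethanol against 7.23%, 8.67% and 10.2% in glucose, without overlap. tT(UAG)Q2 (78833 to 78906), the threonine tRNA for the CUN codons, is the only one on the minus strand, opposite to its neighbours. It had 19, 3 and 15 reads on ethanol and 1, 1 and 0 on glucose, a pooled ratio of 26.8 with a counting interval from 6.91 to 230. Its mean stayed under the filter, and without the filter its log2 fold change was 3.56 ± 1.01 (SE, limma adjusted p = 0.0178). The valine tRNA tV(UAC)Q (79277 to 79352), 604 bases before COX3, had 40.5, 4.5 and 7 reads on ethanol and 1, 2 and 3.5 on glucose. Its log2 fold change of 2.87 ± 1.14 missed the threshold (SE, limma adjusted p = 0.0681), while its percent of mitochondrial CPM was the most even in ethanol of these 3, at 0.0379%, 0.0296% and 0.0331%.

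The make-up of the tRNA signal, each tRNA as a percent of the summed tRNA CPM, is a separate measure that does not depend on the level of other RNA. The genes are 71 to 90 bases long, and ranking by CPM per base gave the same leading 3 in each group. In ethanol the highest were tL(UAA)Q with 12.9% ± 5.21, tF(GAA)Q with 11.2% ± 2.33 and tE(UUC)Q with 9.81% ± 0.196 (SD, n = 3), and their library values overlapped. In glucose tP(UGG)Q led with 25.9% ± 9.98, ahead of tL(UAA)Q and tQ(UUG)Q with 6.39% ± 3.48 each (SD, n = 3), and in each glucose library it stood above both.

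tP(UGG)Q took 4.92%, 3.65% and 16.8% of the tRNA CPM on ethanol and 15.3%, 27.2% and 35.2% on glucose. It was the top tRNA of each glucose library and of ethanol replicate 3, while tL(UAA)Q was the top one of ethanol replicates 1 and 2. Its ethanol mean of 8.44% was 4.29% without replicate 3. The groups overlapped (exact two-sided permutation p = 0.2), and the 95% Wilson interval in glucose replicate 1, with 6 of 39 reads, ran from 7.25% to 29.7%. The 5 highest tRNAs of a library took 52.6% to 58.8% of the tRNA CPM in ethanol and 51.1% to 58.3% in glucose.

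Library values of the 2 groups lay apart for 8 of the 24 shares. The ethanol libraries were above for tE(UUC)Q, tF(GAA)Q, tT(UAG)Q2 and tM(CAU)Q2, whose means were 9.81%, 11.2%, 5.39% and 6.30% against 2.03%, 2.57%, 1.61% and 1.39% in glucose. They were below for tT(UGU)Q1, tC(GCA)Q, tH(GUG)Q and tM(CAU)Q1, with 0.348%, 0.675%, 0.500% and 0.799% against 3.95%, 5.08%, 2.48% and 4.54%. Single libraries weighed on these means. Without ethanol replicate 3 those of tT(UGU)Q1, tC(GCA)Q and tM(CAU)Q1 in ethanol were 0.0929%, 0.261% and 0.448%, and without ethanol replicate 1 that of tH(GUG)Q was 0.322%. Without glucose replicate 1 the glucose means of tM(CAU)Q1 and tE(UUC)Q were 2.98% and 1.13%. None of the 4 above lies in the cluster between the 21S rRNA and COX2, and the 4 below are its first 3 tRNAs and its last. The shares sum to a fixed total and are therefore not separate differences, and the 4 lower ones rest on 0 to 4 reads per library.

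**Figure D4:**
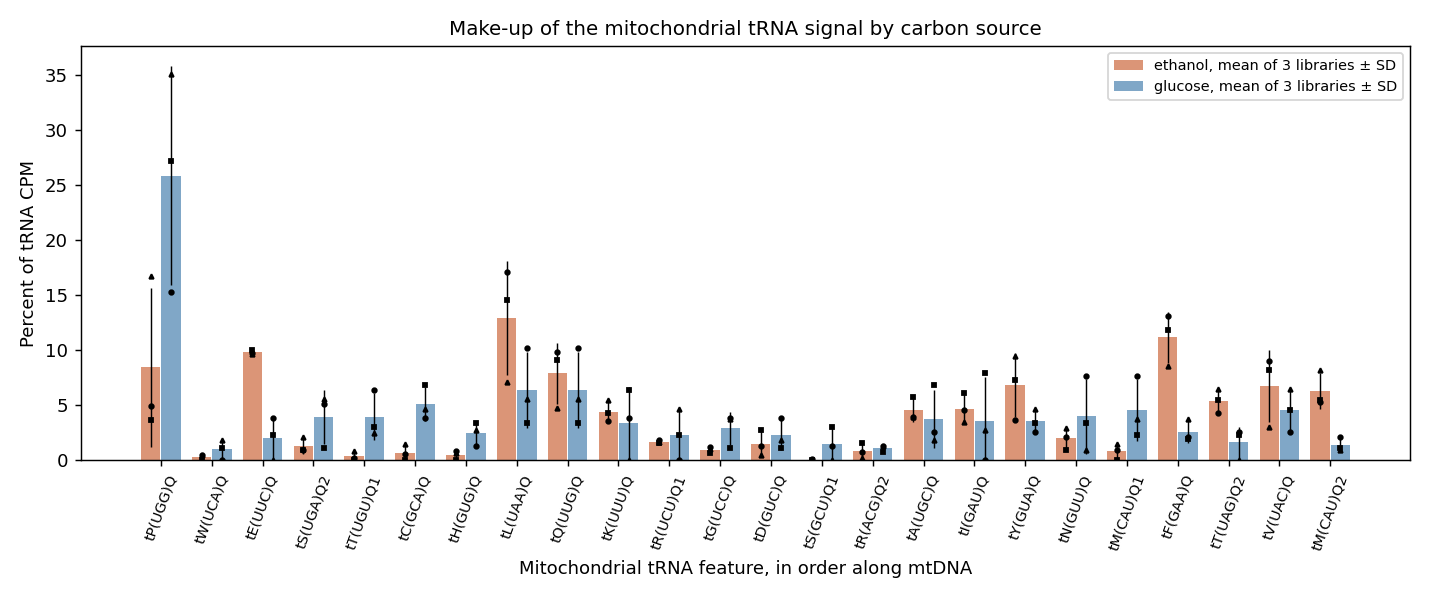
Each tRNA as a percent of the summed tRNA CPM, in order along mtDNA, as the mean of 3 libraries (bars, orange for ethanol and blue for glucose) with SD (lines) and single libraries (circle, square and triangle for replicates 1, 2 and 3). tP(UGG)Q is the tallest bar in glucose at 25.9% and tL(UAA)Q in ethanol at 12.9%.

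Nuclear genes whose products charge, trim or modify mitochondrial tRNAs were read from a list of 38, of which 37 were found by name. Only 7 reached a mean of 10 CPM, and 1 was called, lower in ethanol, where 11.8% of all features tested were called lower. The median log2 fold change of the 7 was -1.73, against -1.44 over all features tested. By gene it was -3.25 for VAS1, -2.45 for GRS1, -1.88 for HTS1, -1.73 for ALA1, -1.33 for RPM2, -1.21 for NAM2 and 0.07 for MSK1. The list was not limited to products that act in mitochondria alone, so the median is no measure of those. The one called was VAS1, the valyl-tRNA synthetase of both cytosol and mitochondria, with 3.54, 14.95 and 43.7 CPM in ethanol and 176, 144 and 107 CPM in glucose (log2 fold change -3.25 ± 1.18 SE, limma adjusted p = 0.0442). It did not pass without ethanol replicate 2 or without any 1 glucose library. RPM2, the protein subunit of mitochondrial RNase P, had 1.18, 3.74 and 64 CPM in ethanol and 24.7, 23.9 and 15.6 CPM in glucose, with a single high ethanol library (log2 fold change -1.33 ± 1.13 SE, limma adjusted p = 0.400). It was named for its role beside RPM1 after its values were seen. Of the 37, 21 had no read in at least 2 ethanol libraries, so that their ethanol level rested on very few reads.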

How the data were processed

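RNA of isolated mitochondria from 6 cultures was analysed, with groups taken from the carbon source that the labels name. Each deposited table holds the CPM of 1 group's 3 libraries as the authors computed them. Per the file headers it also gives where a feature lies on an assembly of CEN.PK113-7D, how long it is and its class. Per the submitters' processing notes the tools were STAR 2.5.4a, SAMtools, featureCounts and edgeR. How reads over several features were counted and any filter are not given in the sources used here.

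The CPM steps gave the worth of 1 read per library. Between 89.2% and 95.3% of the nonzero values were whole reads within 0.005 read, which was not enough for a count test. Copies of an rRNA with equal values were summed and 2 features listed under both of 2 classes were used once, leaving 5654 features. limma 3.58.1 in R 4.3.3 (eBayes with trend) was run on log2(CPM + 1), a scale that understates the change of low features, for features averaging 10 CPM or more, and adjusted p-values (Benjamini-Hochberg) were called under 0.05. The prior degrees of freedom were infinite. The model was tested on simulated data with known 8-fold changes in features above a minimum glucose level. All tRNAs but tP(UGG)Q lie below that level, so the check does not cover them. Shares, neighbours, exact counting intervals on rounded pooled reads and figures were computed with Python 3.11.15, scipy 1.17.1 and matplotlib 3.10.9.

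The members and lists were chosen with earlier results of these data known. All 24 tRNAs are named. Values for every library were set out for those past the threshold, the 3 with the highest share of tRNA CPM in each group and neighbours with equal values, and reads per library for the others where they helped. Alternatives were other pseudocounts, filters and scalings, limma without the trend, a replicate block, other denominators, and leaving out each library.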

Additional observations from a re-analysis of the deposited data

How the results depend on the processing

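The count of tRNAs called, 5 of 8 tested, was 2 with a pseudocount of 0.1 CPM, 8 of 24 without a filter, 0 with a replicate block, and between 0 and 7 when 1 library was left out. It was 7 with a pseudocount of 10 CPM, under each of the 3 other scalings and without the trend. The median of all log2 fold changes, -1.44, was -0.38 with each library centred on its median and -0.80 with TMM factors, a shift that raised the tRNA values too. A filter at 50 CPM left no tRNA to test. The 8 log2 fold changes stayed positive in all 14 alternatives each, but that of tP(UGG)Q, 0.99, was 2.05 with each library centred on its median and 1.79 with TMM factors. Replicate numbers did not pair the samples (correlations of deviations -0.082, -0.029 and 0.014), and the labels give no shared batch, so the block has no design behind it. The 1 nuclear gene called of the list became 4 without a filter, 2 with each library centred on its median, 0 with a filter at 50 CPM, 0 with the replicate block, and 0 to 4 when 1 library was left out.

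The mean difference of 0.561 percentage points in the tRNA share of mitochondrial CPM was 6.97 without the rRNAs in the denominator, 0.0315 over all listed features, 0.267 from whole-read values alone, and between 0.323 and 0.694 when 1 library was left out, with 0.323 without ethanol replicate 3. The cause was not tested. From whole-read values alone the share was 0.0534%, 0.164% and 0.710% in ethanol and 0.0372%, 0.0356% and 0.0528% in glucose. Ethanol replicate 1 thus lay only just above the highest glucose library, and ethanol replicate 3 was by far the highest. Shares of tRNA CPM moved with single libraries, as given beside them. Depth limits all of this, with 137.34 tRNA reads in glucose over 3 libraries.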

Other observations

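The tables also hold 3 features classed as cytosolic tRNA, but these are 552 to 2265 bases long and named after proteins that act on tRNA, and 2 of them are listed a second time among the nuclear mRNAs with equal values. Only 1 nuclear feature is 100 bases long or less. A comparison of mitochondrial with cytosolic tRNA was therefore not made.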
